A study of Homo sapiens with 8 samples.

Results

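The genes described here are 10 members of the fibroblast growth factor (FGF) pathway, taken by symbol from 32415 gene names in the deposited tables. They are the ligands FGF2, FGF8 and FGF17, the receptors FGFR1, FGFR2 and FGFR3, and the feedback inhibitors DUSP6, SPRY1, SPRY2 and SPRY4. Their transcripts were measured by RNA sequencing in H9, an established line of human embryonic stem cells, on gels of 400 Pa (soft) and 60 kPa (stiff). The groups are mesoderm-induced cells at day 3.5 on 400 Pa, the same on 60 kPa, undifferentiated cells at day 0 on 400 Pa and the same on 60 kPa. Each group holds 2 libraries. Per the labels, undifferentiated cells were kept in medium conditioned by feeder cells, and the induction cocktail held bFGF, the protein encoded by FGF2, together with Activin, VEGF and BMP4. The transcript of FGF2 is therefore not a measure of the FGF2 protein these cells received. Whether a group's libraries were separate cultures is not labelled, so the authors' p-values measure a spread that may be technical.

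FGF ligands bind receptor tyrosine kinases, with heparan sulphate chains as cofactors, and the receptors signal through adaptors to RAS, RAF, MEK and ERK. In human pluripotent cells FGF2 is a standard medium component that supports self-renewal, and in the embryo FGF8 and FGF17 are ligands of the gastrulating streak and of early mesoderm. ERK switches on its own inhibitors: DUSP6 is a phosphatase that removes phosphate from ERK, and the Sprouty proteins act on the cascade upstream of it. Transcripts of these inhibitors are widely used as a readout of ERK activity, which was not measured here.

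The authors' value for a gene is 1 FPKM (fragments normalised to transcript length and library size) per group, so no value per library and no read depth stand behind a level. The labelled states were checked against marker sums. At day 3.5 the 9 measured streak and mesoderm markers summed to 206 FPKM on the soft gel and 49.1 FPKM on the stiff gel, and at day 0 each was under 1 FPKM on both gels. Most of the soft-gel sum came from HAND1, MEIS1 and ISL1. The 8 pluripotency markers summed to 467 FPKM on the soft gel and 760.0 FPKM on the stiff gel at day 3.5, and to 1540 and 1678 FPKM on these gels at day 0. These cells are a bulk sample, in which fewer cells of a type and less RNA per cell cannot be told apart. The tables of the days were made separately, and no test across days could be made on the levels.

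Among the ligands, FGF2 was higher than FGF8 at day 0, and FGF8 was above 1 FPKM at day 3.5 alone. FGF2 was at 3.90 FPKM on the soft gel and 5.09 FPKM on the stiff gel at day 3.5, against 16.5 on the soft gel and 17.4 on the stiff gel at day 0. FGF8 was at 3.05 FPKM on the soft gel and 2.28 FPKM on the stiff gel at day 3.5, against 0.0906 on the soft gel and 0.0776 on the stiff gel at day 0. FGF2 thus had its lower values and FGF8 its higher values in the induced cells, on both gels. FGF17 was at 0.629 FPKM on the soft gel and 0.846 FPKM on the stiff gel at day 3.5, and its day 0 level is not analysed here. On hg19 FGF8 lies at chr10:103529899-103535854 and FGF17 at chr8:21899909-21906320. FGF2 lies in an interval of the authors' table, chr4:123747863-123844180 on hg19, that also holds NUDT6, a gene known to overlap FGF2 on the other strand. NUDT6 lay above FGF2 in all 4 groups, at 18.1 FPKM on the soft gel and 21.1 FPKM on the stiff gel at day 3.5. Whether the authors counted by strand is not given in the sources used here, so reads of FGF2 and NUDT6 in the overlap cannot be told apart.

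FGFR1 was the most abundant receptor transcript in every group. It was at 117 FPKM on the soft gel and 204 FPKM on the stiff gel at day 3.5, against 263 on the soft gel and 185 on the stiff gel at day 0. Of the summed FPKM of FGFR1, FGFR2, FGFR3 and FGFR4, FGFR1 made up 69.6% on the soft gel and 75.1% on the stiff gel at day 3.5, and 76.3% on the soft gel and 75.9% on the stiff gel at day 0. FGFR2 was at 26.7 FPKM on the soft gel and 31.3 FPKM on the stiff gel at day 3.5, against 39.9 on the soft gel and 32.2 on the stiff gel at day 0. FGFR3 was at 14.4 FPKM on the soft gel and 20.3 FPKM on the stiff gel at day 3.5, against 27.6 on the soft gel and 11.3 on the stiff gel at day 0. The order FGFR1, FGFR2, FGFR3 held in all 4 groups. FGFR4, which is outside the 10 genes, lay below FGFR3 in 3 groups and above it on 60 kPa at day 0, at 15.0 FPKM. The FPKM is per gene, so the splice forms of FGFR1, FGFR2 and FGFR3 that differ in ligand preference are not separated. On hg19 the authors' intervals are chr8:38268277-38326352 for FGFR1, chr10:123237477-123357972 for FGFR2 and chr4:1795034-1810613 for FGFR3.

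Of the inhibitors, DUSP6 had the highest FPKM in every group. It was at 59.8 FPKM on the soft gel and 19.0 FPKM on the stiff gel at day 3.5, against 49.7 on the soft gel and 88.0 on the stiff gel at day 0. The day 3.5 level on the stiff gel stands apart as the lowest of the 4. SPRY2 was at 9.71 FPKM on the soft gel and 4.85 FPKM on the stiff gel at day 3.5, against 4.74 on the soft gel and 5.62 on the stiff gel at day 0. SPRY4 was at 6.46 FPKM on the soft gel and 4.60 FPKM on the stiff gel at day 3.5, against 11.2 on the soft gel and 16.9 on the stiff gel at day 0. SPRY1 was at 8.64 FPKM on the soft gel and 7.75 FPKM on the stiff gel at day 3.5, against 8.02 on the soft gel and 9.67 on the stiff gel at day 0, the narrowest range of the 4 inhibitors. The interval of SPRY4 in the authors' table, chr5:141689810-142141091 on hg19, also holds FGF1 and a merged noncoding locus. DUSP6 lies at chr12:89741009-89747048, SPRY2 at chr13:80909187-80915127 and SPRY1 at chr4:124317950-124326256, each alone in its interval on hg19.

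**Figure D1:**
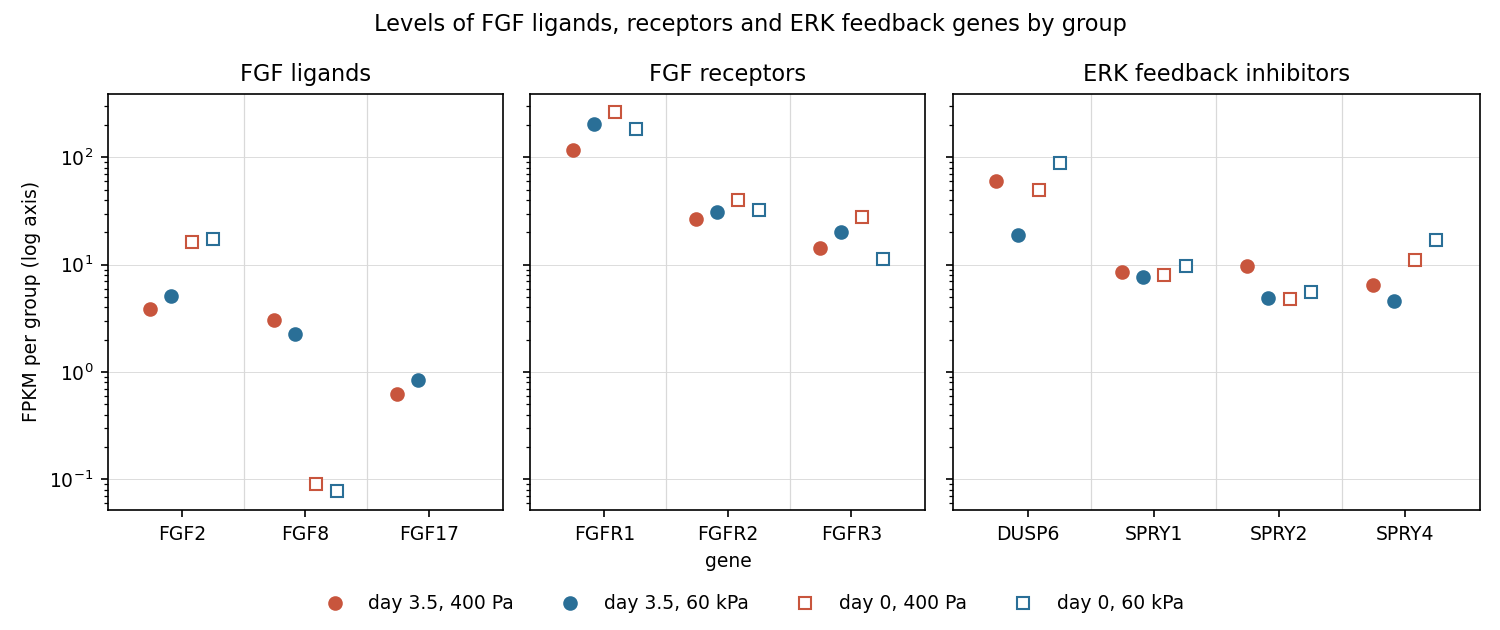
FPKM of each gene (log axis) in the 4 groups, 1 value per group, with filled circles for day 3.5, open squares for day 0, red for 400 Pa and blue for 60 kPa. DUSP6 at day 3.5 is at 59.8 on the soft gel and 19.0 on the stiff gel, and FGF8 lies under 0.1 FPKM in both day 0 groups.

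The 4 inhibitor genes lay on the same side of 0 as each other in each comparison of the gels, so the sequence before their starts is shown. RefSeq windows on build GRCh38.p14 matched 7 of the 10 genes, with 14 start sites. These genes are the 4 inhibitors, FGF2, FGFR2 and FGFR3. The 250 bases upstream of each start were searched on both strands for the ETS core CCGGAA, the AP-1 motif TGANTCA and the TATA box TATAAA. ETS factors are a class of transcription factors that ERK acts on. The ETS core was in 2 of the 14 windows (14.3%), against 14.5% of 35116 windows of all genes. That share is over all 7 genes and not over the inhibitors alone. Of the matches, 1 was in a window of SPRY1 and 1 in a window of SPRY2, and the inhibitors' own share was not tested. The other motifs were in none of the 14, against 6.57% for AP-1 and 10.7% for the TATA box over all windows. The windows below are those of DUSP6 (chr12:89352502-89352751, minus strand), SPRY2 (chr13:80341127-80341376, minus strand), SPRY4 (chr5:142324248-142324497, minus strand) and SPRY1 (chr4:123398136-123398385, plus strand). They run 5′ to 3′ and end at the base before the start, with capitals marking the ETS core on either strand. For SPRY1 and SPRY2, which have several starts, the window with a match is shown.
DUSP6: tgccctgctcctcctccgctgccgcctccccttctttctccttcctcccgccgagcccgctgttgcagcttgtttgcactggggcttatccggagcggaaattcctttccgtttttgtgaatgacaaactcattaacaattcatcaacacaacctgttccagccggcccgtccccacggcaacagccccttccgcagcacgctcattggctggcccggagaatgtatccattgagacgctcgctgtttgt
SPRY2: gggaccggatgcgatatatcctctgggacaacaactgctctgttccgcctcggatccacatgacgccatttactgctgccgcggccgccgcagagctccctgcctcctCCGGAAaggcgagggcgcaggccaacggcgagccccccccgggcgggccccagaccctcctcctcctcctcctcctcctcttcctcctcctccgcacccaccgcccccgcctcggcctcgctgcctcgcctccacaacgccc
SPRY4: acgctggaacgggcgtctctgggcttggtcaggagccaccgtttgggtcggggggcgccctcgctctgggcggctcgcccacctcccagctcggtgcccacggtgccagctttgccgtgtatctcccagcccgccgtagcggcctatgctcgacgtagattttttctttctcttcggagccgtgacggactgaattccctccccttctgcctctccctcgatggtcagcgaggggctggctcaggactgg
SPRY1: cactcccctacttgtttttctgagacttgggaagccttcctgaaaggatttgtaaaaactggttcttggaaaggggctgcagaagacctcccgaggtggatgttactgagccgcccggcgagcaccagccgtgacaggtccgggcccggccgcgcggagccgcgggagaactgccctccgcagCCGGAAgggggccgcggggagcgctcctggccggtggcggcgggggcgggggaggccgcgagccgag
A match is a description of letters and not a binding site, and windows with no match say nothing of the factor.

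At day 3.5 the inhibitor transcripts lay higher on the soft gel and the receptor transcripts lower, and no gene of the 10 passed the authors' test. A call means q below 0.05 in the authors' deposited table for a locus with at least 1 FPKM on 1 gel. Of the 10 genes, 9 met that minimum and were tested, all but FGF17, and none was called, against 1.33% of the 18225 tested loci. DUSP6 came closest, with 59.8 FPKM on the soft gel and 19.0 FPKM on the stiff gel, a ratio of 3.15. Its change, log2((FPKM + 1) on 400 Pa / (FPKM + 1) on 60 kPa), was 1.60 (standard error, SE, 0.70). That size exceeded the change of 97.8% of tested loci. The authors' deposited table gives it p = 0.00065 and q = 0.0521, just outside the threshold. When the Benjamini-Hochberg adjustment was recomputed over the loci that reach the FPKM minimum, its adjusted p was 0.0478, so the call depends on which loci enter the adjustment. The SE was obtained by dividing the authors' log2 ratio by their statistic, and it is approximate. It therefore belongs to the ratio without the added 1. Where levels are low, the change printed beside an SE is smaller in size than that ratio. For DUSP6 the p-value in the authors' deposited table is smaller than its statistic would give under a normal distribution, which is 0.0188. The same holds for every other gene of the 10 that the authors tested, on each day. It also holds for the calls among the further pathway genes named below, except FGF19. For these genes the SE and the p-value printed beside it do not measure the same error. At q below 0.1 in the authors' deposited table DUSP6 was the 1 gene of 9, against 1.63% of loci.

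The Sproutys lay on the same side as DUSP6 at day 3.5, with smaller changes. SPRY2 had a change of 0.87 (SE 0.58), with p = 0.0172 and q = 0.491 in the authors' deposited table. SPRY4 had 0.41 (SE 0.99) and SPRY1 had 0.14 (SE 0.75), with q = 0.999979 for both in the authors' deposited table. The changes of SPRY4 and SPRY1 are thus smaller than their errors. The summed FPKM of the 4 inhibitors was 84.7 on the soft gel and 36.2 on the stiff gel, and DUSP6 accounts for most of that difference. Of the receptors, FGFR1 had a change of -0.79 (SE 0.72), FGFR3 of -0.47 (SE 1.16) and FGFR2 of -0.22 (SE 0.65). FGFR1 had p = 0.0772 in the authors' deposited table, the lowest of the receptors. Of the ligands, FGF2 had a change of -0.31 (SE 0.93), FGF8 of 0.30 (SE 1.13) and FGF17 of -0.18 (SE 1.32), each smaller than its error. Over the 9 tested genes 5 lay above 0, with a median of 0.14, against 51.9% of all tested loci above 0 and a median of 0.02. At an unadjusted p below 0.05, DUSP6 and SPRY2 passed in the authors' deposited table, 2 of 9, against 5.93% of all tested loci.

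In undifferentiated cells both groups of genes lay on the opposite sides. At day 0 the receptors were higher on the soft gel and the inhibitors lower, again with no call. Of the 10 genes 8 were tested with at least 1 FPKM, and none was called, against 0.139% of 17315 loci. FGFR3, at 27.6 FPKM on the soft gel and 11.3 FPKM on the stiff gel, had a change of 1.21 (SE 0.79), larger than that of 98.1% of tested loci. The authors' deposited table gives FGFR3 p = 0.0132 and q = 0.999829. DUSP6, at 49.7 FPKM on the soft gel and 88.0 FPKM on the stiff gel, had a change of -0.81 (SE 0.45), with p = 0.0078 and q = 0.999829 in the authors' deposited table. No gene of the 8 was below q of 0.1 there, against 0.167% of loci. Those 2 of 8 genes had an unadjusted p below 0.05 there, against 1.86% of all tested loci. FGFR1 had a change of 0.51 (SE 0.59) and FGFR2 of 0.30 (SE 0.55). SPRY4 had -0.56 (SE 0.71), SPRY1 -0.24 (SE 0.58) and SPRY2 -0.20 (SE 0.52). FGF2 was nearly level, at -0.08 (SE 0.50). FGF8 was not tested by the authors on that day. Over the 8 tested genes 3 lay above 0, with a median of -0.14, against 53.9% of all tested loci above 0 and a median of 0.02.

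**Figure D2:**
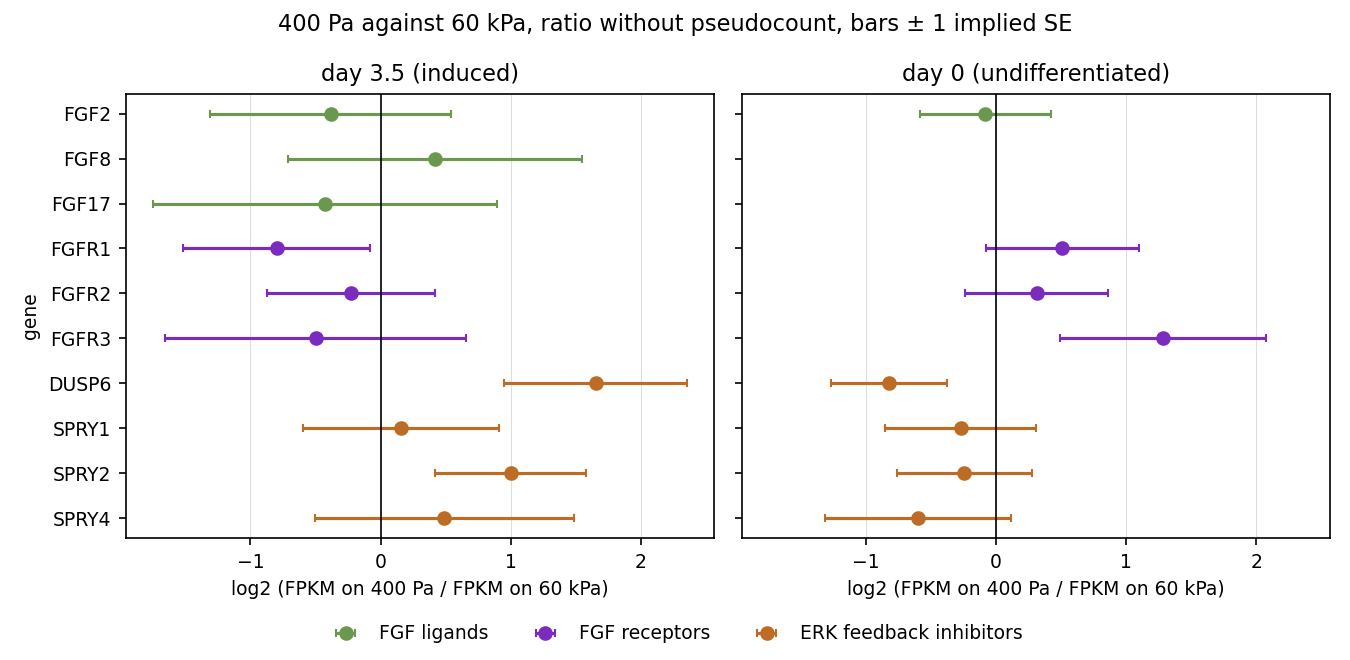
Log2 ratio of FPKM on 400 Pa over 60 kPa without pseudocount for each gene tested by the authors, at day 3.5 (left) and day 0 (right), with bars of 1 implied SE to each side. The 4 inhibitors lie right of 0 at day 3.5 and left of 0 at day 0, the 3 receptors lie the other way, and most bars cross 0.

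Markers of several cell types differed between the gels at day 3.5, beside the values of DUSP6 and the receptors. Streak and mesoderm markers summed to 206 FPKM on the soft gel and 49.1 FPKM on the stiff gel, with 9 of 9 above 0 and 3 called in the authors' deposited table. HAND1 (53.8 FPKM), MEIS1 (62.4 FPKM) and ISL1 (47.7 FPKM) made up most of the soft-gel sum and were the 3 calls. T, MIXL1, EOMES, MESP1, TBX6 and GATA4 were not called, with MIXL1 at 7.60 FPKM on the soft gel and 6.39 on the stiff gel. ISL1 is also in the amnion and trophoblast list, so it enters both sums and both counts of calls. Amnion and trophoblast markers summed to 270 FPKM on the soft gel and 58.5 FPKM on the stiff gel (8 of 8 above 0, 5 called in the authors' deposited table), and fibroblast markers to 257 FPKM on the soft gel and 67.5 FPKM on the stiff gel (5 of 7 above 0, 3 called there). Neuroectoderm markers summed to 114 FPKM on the soft gel and 347 FPKM on the stiff gel, with 7 of 7 tested below 0 and 4 called in the authors' deposited table. Endoderm markers summed to 25.9 FPKM on the soft gel and 37.9 FPKM on the stiff gel, and endothelial and blood markers to 7.57 FPKM on the soft gel and 4.31 FPKM on the stiff gel. GATA1 was the only marker listed at 0 at day 3.5, on 60 kPa. At day 0 the neuroectoderm list summed to 192 FPKM on the soft gel and 113 FPKM on the stiff gel, so that it lay on the same side as the receptors on both days. OTX2 made up most of that day 0 sum, at 136 FPKM on the soft gel and 82.2 FPKM on the stiff gel. Of the 8 neuroectoderm markers, 4 were under 1 FPKM on the soft gel and 5 on the stiff gel at day 0. PAX6 was nearly level at day 3.5, at 17.2 FPKM on the soft gel and 19.6 FPKM on the stiff gel (change -0.17). The amnion and trophoblast list summed to 21.4 FPKM on the soft gel and 11.9 FPKM on the stiff gel at day 0, higher on the soft gel as at day 3.5, with 1 call in the authors' deposited table. The fibroblast list summed to 155 FPKM on the soft gel and 208 FPKM on the stiff gel at day 0. THY1 made up most of that sum, at 135 FPKM on the soft gel and 191 FPKM on the stiff gel, while 4 of the 7 fibroblast markers were higher on the soft gel and 4 were under 1 FPKM on each gel. Endoderm markers summed to 3.51 FPKM on the soft gel and 2.56 FPKM on the stiff gel at day 0, and endothelial and blood markers to 11.3 FPKM on the soft gel and 10.1 FPKM on the stiff gel. SOX1, FOXA2, DCN and GATA1 on 60 kPa and GATA4 on 400 Pa were listed at 0 at day 0. The part of these markers in the values of the FGF genes was not tested.

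The direction of the gel difference was therefore opposite on the 2 days for all 3 receptors and all 4 inhibitors. Of the 8 genes tested on both days, 7 had opposite directions and FGF2 did not, and over all 14391 loci tested on both days the share was 53.1%. The size of the day difference was tested for each locus from the deposited log2 ratios and their implied errors, with a normal approximation and Benjamini-Hochberg adjustment over 15090 loci. For DUSP6 the log2 ratio of 400 Pa over 60 kPa was 1.65 at day 3.5 and -0.82 at day 0, a difference of 2.48 (SE 0.83). The normal approximation rests on 2 libraries per group, so its p-values are given here only as counts past a threshold. The next differences were 1.24 (SE 0.78) for SPRY2, -1.31 (SE 0.93) for FGFR1 and -1.78 (SE 1.40) for FGFR3. None of the 8 genes passed after adjustment, against 0.0729% of loci, and FGF8 and FGF17 did not enter this test. DUSP6 was the only one past an unadjusted p of 0.05, against 0.888% of loci. That share of loci is below what the threshold itself would give with no true difference, so the test was strict. Not passing it does not show that a gene's difference between days was absent. The opposite directions of the 7 genes are thus a count of signs, and for none of them did the difference between days pass the adjusted test.

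Between the days the widest differences in level, on either gel, were those of DUSP6, FGF8, FGF2 and SPRY4. The change of day 3.5 over day 0, on the log2(FPKM + 1) scale, has no replicate error and no test. FGF2 had -1.83 on the soft gel and -1.60 on the stiff gel, and FGF8 had 1.89 on the soft gel and 1.61 on the stiff gel, so each ligand had similar values on both gels. DUSP6 had 0.26 on the soft gel and -2.15 on the stiff gel. SPRY4 had -0.70 on the soft gel and -1.68 on the stiff gel, SPRY2 had 0.90 on the soft gel and -0.18 on the stiff gel, and SPRY1 had 0.10 on the soft gel and -0.29 on the stiff gel. All 4 inhibitors thus had the lower value on the stiff gel. FGFR1 had -1.16 on the soft gel and 0.14 on the stiff gel, FGFR3 had -0.89 on the soft gel and 0.79 on the stiff gel, and FGFR2 had -0.56 on the soft gel and -0.04 on the stiff gel. All 3 receptors thus had the lower value on the soft gel. Of the 9 genes with both days, 1 was higher at day 3.5 by at least 1 log2 unit on each gel (FGF8), against 9.61% of loci on the soft gel and 6.71% on the stiff gel. Lower by at least 1 were 2 on 400 Pa (FGF2 and FGFR1), against 5.99% of loci, and 3 on 60 kPa (FGF2, DUSP6 and SPRY4), against 4.22% of loci. These changes use the same 4 values per gene as the comparisons of the gels and are not separate evidence of a difference between the gels.

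**Figure D3:**
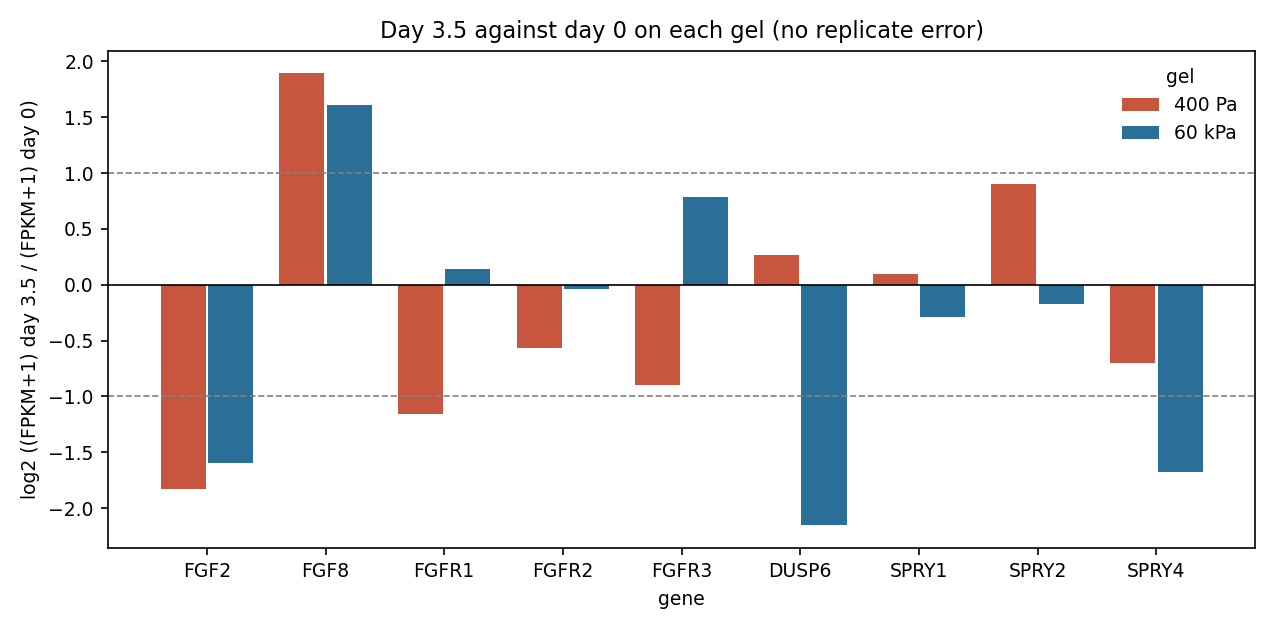
Log2((FPKM + 1) at day 3.5 / (FPKM + 1) at day 0) for the 9 genes with a value on both days, in red for 400 Pa and blue for 60 kPa, with dashed lines at 1 and -1. DUSP6 has 0.26 on the soft gel and -2.15 on the stiff gel, and FGF2 and FGF8 have bars of similar height on both gels.

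The rest of the pathway was described from 7 lists of 140 further genes. These lists were chosen with earlier results of these data known. The shares of all loci below are therefore given for scale and are not a test of the pathway. At day 3.5, 7 of the 104 tested were called in the authors' deposited table, all higher on 400 Pa, against 1.08% of all tested loci called in that direction. An unadjusted p below 0.05 in that table was held by 27 of the 104, against 5.93% of all tested loci. At day 0 none of 95 tested was called in the authors' deposited table, against 0.139% of all tested loci called in either direction and 0.0635% called higher on 400 Pa. Of the 95, 3 had an unadjusted p below 0.05 there, against 1.86% of all tested loci. Among the other FGF ligands, FGF19, an endocrine-type FGF, was the only call of 6 tested. It was at 10.9 FPKM on the soft gel and 1.48 FPKM on the stiff gel at day 3.5 (change 2.26, SE 0.70), with q = 0.00783 in the authors' deposited table, and it rose on the soft gel relative to the stiff one. At day 0 FGF19 was at 1.59 FPKM on the soft gel and 2.29 FPKM on the stiff gel. The median change of these 6 ligands at day 3.5 was 0.93, with 5 above 0. Of them, FGF1 (1.17 FPKM on the soft gel, 0.199 on the stiff gel) and FGF3 (1.46 and 0.156) reached 1 FPKM on the soft gel alone. The minimum thus let these genes in only with a change above 0, and the median says nothing of a direction of the list. At day 0, 0 of the 4 ligands tested lay above 0, with a median of -0.21. FGFR4 was at 10.2 FPKM on the soft gel and 16.2 FPKM on the stiff gel at day 3.5 (change -0.63, SE 0.79), on the same side as the 3 receptors above and without a call. At day 0 FGFR4 was at 14.2 FPKM on the soft gel and 15.0 FPKM on the stiff gel (change -0.07, SE 0.55). Unlike those 3 receptors, it was thus not higher on the soft gel at day 0. FLRT3, a membrane protein that can bind FGF receptors, was at 71.3 FPKM on the soft gel and 46.7 FPKM on the stiff gel at day 3.5, against 2.03 on the soft gel and 0.932 on the stiff gel at day 0.

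The genes of the cascade between receptor and ERK had medians close to 0. Of 19 adaptor and cascade genes tested on each day none was called in the authors' deposited table, none had an unadjusted p below 0.05 there, and the median change was 0.03 at day 3.5 and -0.0016 at day 0. Single changes ran from -0.35 (PTPN11) to 0.29 (HRAS) at day 3.5, and from -0.43 (SHC1) to 0.72 (HRAS, SE 1.13) at day 0. These genes are named as the ends of the range, after their values were seen. MAP2K2, a MEK kinase, was at 96.1 FPKM on the soft gel and 83.7 FPKM on the stiff gel at day 3.5, against 76.9 on the soft gel and 76.9 on the stiff gel at day 0. GRB2, the adaptor that couples receptors to RAS, was at 50.1 FPKM on the soft gel and 51.1 FPKM on the stiff gel at day 3.5, against 58.2 on the soft gel and 59.0 on the stiff gel at day 0. The 16 other feedback genes tested had no call and medians of 0.01 at day 3.5 and -0.04 at day 0, with 8 of 16 above 0 at day 3.5. Of these, 2 had an unadjusted p below 0.05 in the authors' deposited table at day 3.5, on opposite sides. They were DUSP2 (change 1.15, SE 0.76) and DUSP4 (change -0.76, SE 0.60), named after their values were seen. SPRED1, a relative of the Sproutys, was at 30.7 FPKM on the soft gel and 19.4 FPKM on the stiff gel at day 3.5. PEBP1, an inhibitor of RAF, was at 157 FPKM on the soft gel and 171 FPKM on the stiff gel on that day.

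Of the 15 genes listed as ERK-induced and tested at day 3.5, FOSL2 and SPSB4 were called in the authors' deposited table, and both rose on the soft gel relative to the stiff one. FOSL2, an AP-1 subunit, was at 12.8 FPKM on the soft gel and 1.65 FPKM on the stiff gel (change 2.38, SE 1.35), with q = 0.00783 in the authors' deposited table. SPSB4, a SOCS-box protein and not an established ERK target, was at 15.3 FPKM on the soft gel and 5.02 FPKM on the stiff gel (change 1.44, SE 0.61), with q = 0.0346 in the authors' deposited table. The list had a median of 0.42 with 9 of 15 above 0 at day 3.5, and of -0.27 with 3 of 16 above 0 at day 0. An unadjusted p below 0.05 in the authors' deposited table was held by 6 of the 15 at day 3.5, against 5.93% of all tested loci. Besides the calls, ETS1 (change 0.98, SE 0.76), FOS (0.83, SE 1.13) and MYC (0.77, SE 0.62) were higher on the soft gel. ETS2 (-0.80, SE 0.70) was lower on it. At day 0 such a p was held by 2 of 16, against 1.86% of all tested loci. ETV1 (-0.13, SE 0.85) and ETV4 (-0.37, SE 1.69) were among the 6 below 0 at day 3.5. Apart from the calls, these genes are named after their values were seen.

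Among heparan sulphate genes, SDC4, a cell-surface proteoglycan, and HS3ST3A1, a sulphotransferase of these chains, were the calls of 21 tested at day 3.5 in the authors' deposited table. SDC4 was at 44.4 FPKM on the soft gel and 18.6 FPKM on the stiff gel (change 1.21, SE 0.48), and HS3ST3A1 was at 3.02 FPKM on the soft gel and 0.776 FPKM on the stiff gel (change 1.18, SE 0.79). Both had q = 0.0462 in the authors' deposited table. The SE of HS3ST3A1 belongs to the authors' log2 ratio of 60 kPa over 400 Pa, which was -1.96. Over the 21 genes 12 lay above 0, with a median of 0.21. The whole list summed to 404 FPKM on the soft gel and 430 FPKM on the stiff gel. Of the 21, 8 had an unadjusted p below 0.05 in the authors' deposited table, against 5.93% of all tested loci. Besides the calls, SULF1, HS3ST1 and GPC5 were higher on the soft gel, and GPC3, GPC4 and HS6ST2 lower. They are named after their values were seen. Among the other receptor tyrosine kinases and their ligands, FLT1, a VEGF receptor, and HGF, the ligand of MET, were the calls of 21 tested there, each with q = 0.00783 in the authors' deposited table. HGF was at 29.6 FPKM on the soft gel and 1.79 FPKM on the stiff gel at day 3.5 (change 3.45, SE 1.05), and under 1 FPKM on both gels at day 0. FLT1 was at 25.0 FPKM on the soft gel and 8.87 FPKM on the stiff gel at day 3.5 (change 1.40, SE 0.53), against 31.2 on the soft gel and 33.2 on the stiff gel at day 0. The lowest of its 4 levels was that on the stiff gel at day 3.5. Over the 21 genes of this list 11 lay above 0 at day 3.5, with a median of 0.0018. An unadjusted p below 0.05 in the authors' deposited table was held by 6 of them, against 5.93% of all tested loci.

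**Figure D4:**
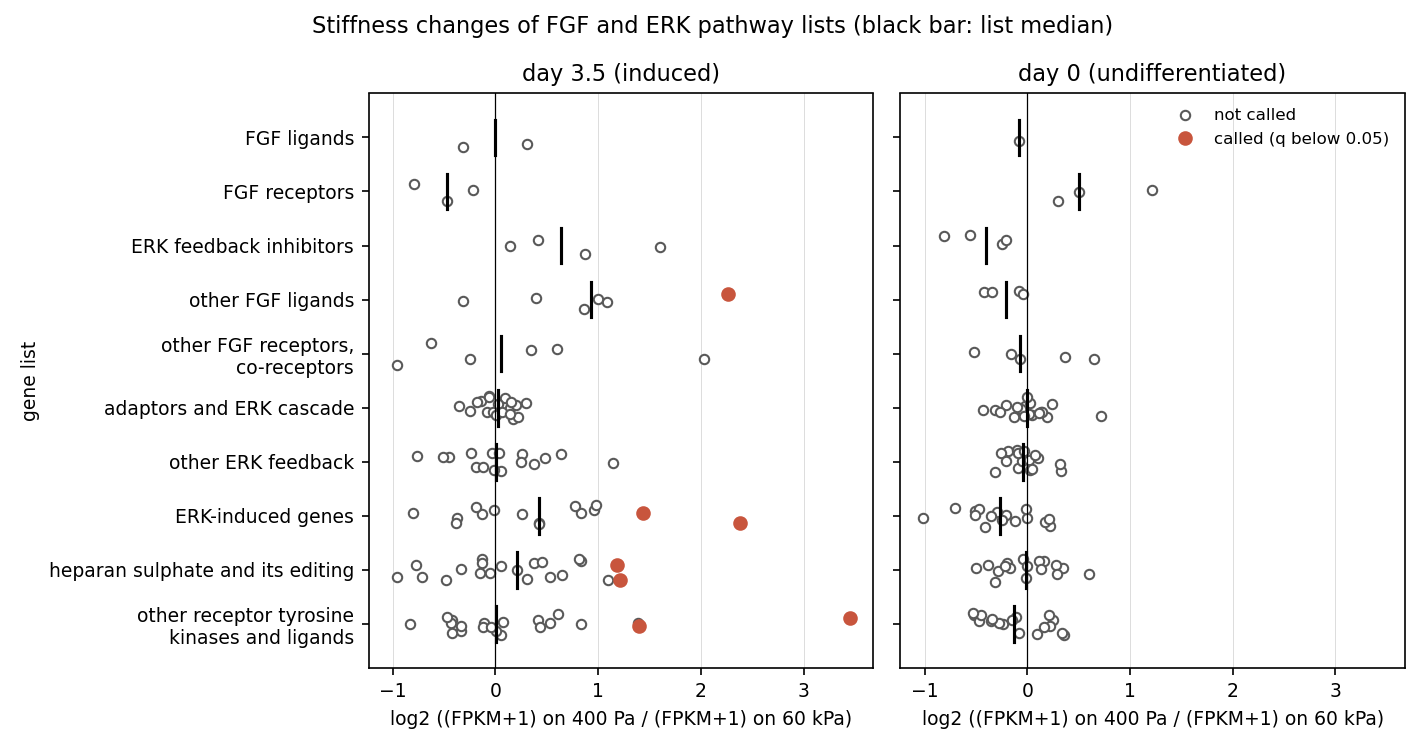
Change, log2((FPKM + 1) on 400 Pa / (FPKM + 1) on 60 kPa), of each tested gene by list at day 3.5 (left) and day 0 (right), with filled red points for calls at q below 0.05 and a black bar at each list's median. The 7 calls lie right of 0 at day 3.5, none lies among the 10 genes, and the median of the adaptor and cascade genes is 0.03 at day 3.5 and -0.0016 at day 0.

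Genes with the most similar pattern were sought by the distance between their 4 log2(FPKM + 1) values, each centred on its mean, among 10483 other genes with at least 5 FPKM in a group. The measure rests on 4 values and is a description. For DUSP6 the closest were TRIML2 (distance 0.37) and MYL7, an atrial myosin light chain (0.40), and 3 genes in all lay within 0.5. MYL7 was at 10.2 FPKM on the soft gel and 3.24 FPKM on the stiff gel at day 3.5, against 12.1 on the soft gel and 15.5 on the stiff gel at day 0. For FGF2 the closest was PODXL, a surface sialomucin of pluripotent cells (0.05), at 61.4 FPKM on the soft gel and 76.7 FPKM on the stiff gel at day 3.5, against 212 on the soft gel and 229 on the stiff gel at day 0. FGFR3 had 51 genes within 0.5, SPRY4 had 101, FGF2 had 123, FGFR1 had 493 and SPRY2 had 1011. FGFR2 had 4363 and SPRY1 had 5337, and the levels of both varied little over the 4 groups. The closest genes were UNKL for FGFR1, FAM20C for FGFR2, ANKMY1 for FGFR3, C14orf119 for SPRY1, CHST15 for SPRY2 and FAM110C for SPRY4.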

How the data were processed

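RNA of 8 libraries in 4 groups was sequenced, per the labels. The deposited tables, 1 per day, give 1 FPKM per gene and group. The submitters' processing notes name Cufflinks and hg19, and the aligner, annotation and versions are not stated in any source used here. Beside the FPKM, the authors deposited a log2 ratio (60 kPa over 400 Pa), its statistic (a score), p-values and q-values. Depth per library is unknown, and precision can be read only from that statistic. The highest-mean row per symbol was used; each of the 10 genes has 1 row per table, except FGF17, used at day 3.5 alone. Calls take q below 0.05, FPKM of at least 1 on a gel and status OK. Adding 1 to each FPKM makes the changes of low genes too small. Recomputing the adjustment over all tested loci returned the deposited q-values. The calculation of the day difference was first tested on simulated data and then run on the deposited values. The simulated noise was normal and scaled by the same implied SEs, so it checks the arithmetic alone. It cannot show whether those SEs hold for the deposited values. Genes of the lists were named if called, up to 6 per list, and otherwise the 2 with the highest mean FPKM. The members and lists were chosen with earlier results of these data known. Coordinates of the tables are written 1-based. Promoter sequences are from RefSeq (GRCh38.p14). Computation used scipy 1.17.1, numpy 2.4.6 and pandas 2.3.3 under Python 3.11.15, and figures used matplotlib 3.10.9.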

Additional observations from a re-analysis of the deposited data

How the results depend on the processing

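No paired analysis was possible because the tables hold 1 value per group and none per library; for the same reason no replicate could be left out in turn. Of the changes of the 10 genes between the gels, under other pseudocounts, centring on the median locus and equal sums without the 10 highest loci, the direction turned for FGF8 at day 0 alone (-0.0086 after centring, both levels under 0.1 FPKM). DUSP6 at day 3.5 became a call when the adjustment was recomputed over loci above the FPKM minimum (adjusted p 0.0478). The count of called genes of the 10 then was 1, and 248 of the 18225 tested loci were called instead of 243. The count of genes was also 1 at q below 0.1 (against 1.63% of loci). At q below 0.01 the called loci numbered 0 at day 0 and 128 at day 3.5, instead of 24 and 243. The smallest p-value in the authors' deposited table was 5e-05 on each day. At day 0 that p-value had q = 0.039, so no locus could pass 0.01 and the 0 there is no result. At day 3.5 it had q = 0.00783. With a pseudocount of 0.1, the genes higher at day 3.5 by at least 1 on 400 Pa numbered 2 instead of 1, and all loci 2286 instead of 1566. The loci lower on 400 Pa then numbered 1581 instead of 976, and those on 60 kPa 1821 higher and 1067 lower, instead of 1074 and 676. FGF8 then had a day change of 4.05 on 400 Pa and 3.75 on 60 kPa. For the difference between days, an unadjusted p below 0.05 gave 134 loci and 1 of the 8 genes that entered that test, instead of 11 and 0. The causes were not tested. The FPKM of lowly expressed genes such as FGF17 and FGF8 cannot be given a precision without the read depth.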
